A study of Mus musculus with 28 samples.

Results

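The genes described here are the mouse zinc finger genes whose symbol is Zfp followed by a number. A gene was a member when its read count reached 500 reads summed over 16 RNA-seq libraries, and 9 names were left out beforehand (Zfp42, Zfp57, Zfp352, Zfp445, Zfp568, Zfp708, Zfp809, Zfp819 and Zfp932). This gave 307 members of 37991 genes in the count files, on 20 chromosomes. All 307 were among the 20321 genes with enough reads to be tested. A further 30 Zfp-numbered genes stayed under the minimum. Members were selected on this summed read count and on their name. Just inside it lay Zfp353 with 503 reads, Zfp677 with 677 and Zfp950 with 679, and just outside it Zfp112 with 499, Zfp503 with 486 and Zfp608 with 477. For 2 members, Zfp353 and Zfp677, the reads outside their highest group would not have reached the minimum, so these 2 had to differ between groups and are given as values.

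Most mouse Zfp genes encode tandem C2H2 zinc fingers, small folds that each hold a zinc ion and read a few bases of DNA. Many also carry a KRAB box, the domain through which the protein binds KAP1, the corepressor encoded by Trim28, which brings histone methyltransferases and deacetylases to the bound site. KRAB zinc finger genes lie in clusters that arose by repeated duplication, and KAP1 and H3K9me3, a mark of heterochromatin, are known to occupy the 3′ exons of such genes, where the repeated finger sequence lies.

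All libraries came from mouse J1 embryonic stem cells (129S4/SvJae), kept naive with LIF and inhibitors of MEK and GSK3 on gelatin, without feeder cells. Wild-type (WT) cells, cells lacking Dnmt1, Dnmt3a and Dnmt3b (DNMT TKO) and cells lacking Tet1, Tet2 and Tet3 (TET TKO) received an empty vector (shEmpty) or a hairpin against Kap1 (shKap1), were selected with puromycin and were collected after 5 days. RNA-seq had n = 3 for each WT and DNMT TKO group and n = 2 for each TET TKO group, from independent experiments by the study's methods. By the study's methods the DNMT TKO and TET TKO cells came from different laboratories, and no strain is named there for either. Each genotype is a single line, so a difference between genotypes cannot be told apart from a difference between lines. WT cells also gave H3K4me3 and H3K27me3 peaks from 2 ChIP-seq replicates each, and counts of 5hmC reads over lists of KAP1 and H3K9me3 regions.

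Reads on genes ran from 18108431 to 29373696 per library. Trim28 fell from 1752 ± 207 to 165 ± 21.9 CPM (read counts scaled to a common library size; SD, n = 3) in WT, from 1869 ± 197 to 427 ± 91.5 (n = 3) in DNMT TKO and from 1835 ± 89.8 to 166 ± 3.84 (n = 2) in TET TKO. The knockdown was thus less deep in DNMT TKO, by 1.28 on the log2 scale (edgeR adjusted p = 0.0008). The part of this depth in the responses of that line was not tested. Of 5 naive markers tested, 4 fell in WT on knockdown and 3 in each mutant line, with their summed level going from 3283–3513 to 2063–2198 CPM in WT. The 4 endoderm markers, low in all libraries, summed to 4.28–8.35 CPM in WT shEmpty and 11.2–12.7 CPM in WT shKap1, to 4.01–6.44 and 7.27–9.22 CPM in DNMT TKO, and to 9.88–10.9 and 11.9–12.2 CPM in TET TKO, without overlap in any line. The 4 did not move alike. In WT, DNMT TKO and TET TKO, Sox17 changed by 2.21, 1.61 and 0.88 on the log2 scale and Gata4 by 0.69, 0.34 and 0.26. Gata6 changed by -0.28, 0.09 and -0.76 and Foxa2 by 0.45, -0.28 and -2.06. The 4 feeder markers went from 2.49–4.28 to 5.76–7.81 CPM in DNMT TKO. They went down from 3.67–3.87 to 1.69–1.81 CPM in TET TKO. In WT they had 2.28–3.45 CPM with shEmpty and 1.57–2.55 CPM with shKap1, which overlapped. The 3 trophoblast markers tested summed to at most 7.01 CPM, and their groups did not overlap in any line. They went up from 2.444–3.397 to 3.678–5.295 CPM in WT. They went down from 5.707–7.008 to 1.521–2.546 CPM in DNMT TKO and from 2.178–2.291 to 2.037–2.104 CPM in TET TKO. The part of these markers in the members' rise was not tested. In bulk RNA, fewer cells of a type and less RNA per cell cannot be told apart.

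Most members moved little on Kap1 knockdown, and those that moved mostly rose. In WT the median member was 0.20 higher on the log2 scale (quartiles -0.11 to 0.49), against -0.01 over all genes tested and -0.04 over the 13505 genes that reached 500 reads. At an adjusted p below 0.05 by edgeR's quasi-likelihood test with Benjamini-Hochberg adjustment, whatever the size of the change, 132 members (43.0%) rose and 43 (14.0%) fell in WT, against 23.0% and 22.7% of all genes tested. In DNMT TKO 84 rose (27.4%) and 38 fell (12.4%), against 19.7% and 15.6%. In TET TKO 71 rose (23.1%) and 32 fell (10.4%), against 15.3% and 15.1%. Medians of the members were 0.06 in DNMT TKO and 0.08 in TET TKO.

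Changes of at least 2-fold were counted apart. A gene was called when its adjusted p was below 0.05 and its change at least 2-fold. In WT 26 members were called higher (8.47%) and 2 lower (0.651%), where 10.8% and 6.54% of all genes tested were called. In DNMT TKO 22 were called higher and 1 lower, against 10.1% and 2.42% of all genes tested. In TET TKO 15 were called higher, against 8.05%, and 0 lower, against 4.46%. That count of 0 by edgeR was also 0 by limma-voom and by the DESeq2 Wald test, while 46 members were lower at an unadjusted edgeR p below 0.05 with smaller changes. Among the 13505 genes with at least 500 reads, the minimum that the members also met, 8.24% were called higher in WT, 6.74% in DNMT TKO and 6.27% in TET TKO, against 8.47%, 7.17% and 4.89% of the members. The members' shares called higher were thus near those of genes with as many reads. Without Zfp353 and Zfp677, 24, 20 and 13 members were called higher in the 3 lines. At any size, 26.2%, 20.9% and 17.1% of the genes with at least 500 reads rose, and 4057, 2950 and 2719 of them fell. Over the 3 lines, 38 members (12.4%) were called higher at least once, against 16.8% of all genes tested and 11.8% of those with at least 500 reads. In none of the 7 comparisons were 245 members called (79.8%), against 63.8% and 71.5%.

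Members with and without a KRAB box had different medians. A sequence profile built from 111 KRAB boxes found the box in 174 members, which carried a median of 12 finger motifs. Another 122 had C2H2 fingers without it (median 8), 10 had no C2H2 finger by the motif used, among them Zfp36, an RNA-binding protein of another zinc finger type, and 1 had no coding transcript. In WT 91 KRAB members rose (52.3%) and 16 fell (9.20%), with a median of 0.30. Of the C2H2 members without KRAB, 38 rose (31.1%) and 23 fell (18.9%), with a median of 0.05. In DNMT TKO the medians were 0.16 and 0.02, with 63 of the KRAB members rising and 12 falling, whereas of the others 16 rose (13.1%) and 24 fell (19.7%). In TET TKO they were again 0.16 and 0.02, with 52 rising and 15 falling among the KRAB members and 19 rising and 16 falling among the others. The rising KRAB members of each line include Zfp677, a member only through WT shKap1. These are counts and medians, given without a test of the difference between the classes.

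**Figure D1:**
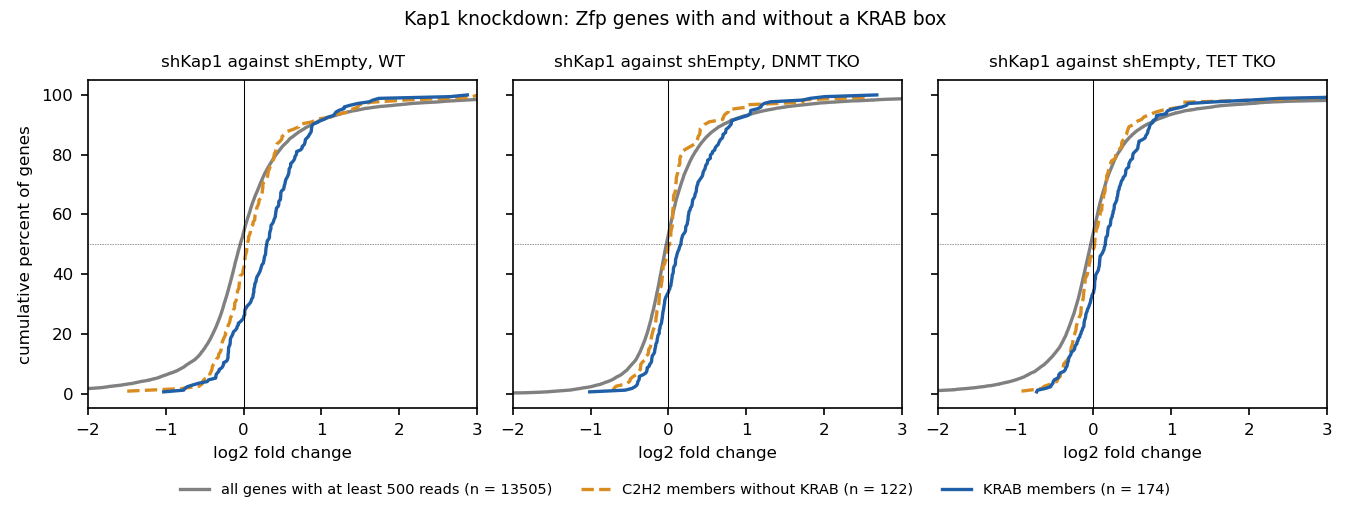
Cumulative percent of genes (y axis) against the log2 fold change of shKap1 over shEmpty (x axis, cut at -2 and 3) in WT, DNMT TKO and TET TKO, for 174 KRAB members (solid blue), 122 C2H2 members without KRAB (dashed orange) and the 13505 genes with at least 500 reads (grey). The blue line lies to the right of the grey one through the middle of each panel, with medians of 0.30, 0.16 and 0.16, and the lines meet near 1, the size of a 2-fold change.

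Genes outside the Zfp-numbered set gave values on both sides of these. The 105 other genes with a match to the KRAB profile and at least 500 reads had a median of 0.30 in WT, 49 rising and 7 falling. Among families of zinc finger genes without KRAB, 4 of 35 Zbtb genes rose and 8 fell (median -0.02), and 5 of 14 Klf genes rose and 7 fell (median -0.40). The joined Zscan and Zkscan families share a SCAN domain and were not split by KRAB. In them 11 of 24 rose at an adjusted edgeR p below 0.05 (median 0.25). Zscan4c and Zscan4d, used below as markers of 2-cell-like cells, had log2 fold changes of 3.28 and 3.41 in WT. A list of KAP1 and its partners, Trim28 included, held 19 names on 20 gene IDs, as Atf7ip has 2. Of the 20, 3 rose and 13 fell in WT, where 23.0% and 22.7% of all genes tested did. The falls include Trim28 itself, the target of the hairpin, and both IDs of Atf7ip. Suv39h1 was called higher and Trim28 lower.

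A set of 9 members (2.93%) was called higher in all 3 lines, against 3.95% of all genes tested and 3.26% of those with at least 500 reads: Zfp629, Zfp618, Zfp560, Zfp54, Zfp125, Zfp455, Zfp467, Zfp677 and Zfp353. The last 2 reached the read minimum only through a shKap1 group, so their calls follow in part from how members were chosen, and 7 remain without them. Of the 9, Zfp560, Zfp677, Zfp54 and Zfp455 carry a KRAB box. For 5 of them the 250 bases before the annotated start are printed to show how unlike these starts were. They are of mm9, read 5′ to 3′ on the strand of the gene, with each CG in capitals.

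Zfp618, chr4:62626357-62626606, plus strand: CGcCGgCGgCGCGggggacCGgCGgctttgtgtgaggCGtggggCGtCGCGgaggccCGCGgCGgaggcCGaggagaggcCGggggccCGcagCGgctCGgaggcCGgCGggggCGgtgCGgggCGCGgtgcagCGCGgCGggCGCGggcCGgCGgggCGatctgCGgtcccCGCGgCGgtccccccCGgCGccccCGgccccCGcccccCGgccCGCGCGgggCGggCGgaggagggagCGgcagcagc
Zfp560, chr9:20189622-20189871, minus strand: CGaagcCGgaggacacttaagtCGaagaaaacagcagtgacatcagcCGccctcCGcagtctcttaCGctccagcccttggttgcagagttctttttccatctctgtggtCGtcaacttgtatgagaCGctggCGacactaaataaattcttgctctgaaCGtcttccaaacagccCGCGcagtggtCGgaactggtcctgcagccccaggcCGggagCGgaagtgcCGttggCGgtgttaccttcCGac
Zfp677, chr17:21520462-21520711, plus strand: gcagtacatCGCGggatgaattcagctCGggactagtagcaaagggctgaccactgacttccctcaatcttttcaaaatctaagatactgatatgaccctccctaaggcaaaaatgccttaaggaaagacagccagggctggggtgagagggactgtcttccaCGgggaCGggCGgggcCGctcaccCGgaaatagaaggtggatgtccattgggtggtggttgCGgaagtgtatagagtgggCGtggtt
Zfp629, chr7:134759312-134759561, minus strand: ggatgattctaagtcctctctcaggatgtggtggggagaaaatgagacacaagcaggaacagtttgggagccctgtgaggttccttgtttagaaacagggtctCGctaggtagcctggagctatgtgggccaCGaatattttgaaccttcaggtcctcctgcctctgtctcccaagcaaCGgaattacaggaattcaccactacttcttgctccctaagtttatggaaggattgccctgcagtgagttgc
Zfp353, chr8:43169734-43169983, minus strand: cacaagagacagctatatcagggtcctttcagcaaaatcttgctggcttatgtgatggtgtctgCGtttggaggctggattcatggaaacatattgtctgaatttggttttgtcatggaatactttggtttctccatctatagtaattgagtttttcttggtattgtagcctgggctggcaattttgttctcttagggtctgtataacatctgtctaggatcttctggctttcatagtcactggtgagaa

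The Zfp618 stretch held 48 CG, as many as or more than 99.8% of the genes tested. Zfp560 held 18, Zfp677 held 10, Zfp629 held 3 and Zfp353 held 1, and 73.3%, 49.6%, 21.5% and 9.18% of genes had as few or fewer. Members had a median of 10 (quartiles 5 to 17) and all genes tested 11 (quartiles 4 to 19), so these 5 starts covered most of the range.

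Zfp629 (chr7:134750545-134759311, minus strand, C2H2 fingers without KRAB) rose the most of all members in WT. Its level was 3.17, 3.10 and 3.68 CPM in the WT shEmpty libraries and 27.8, 26.5 and 26.5 CPM with shKap1. In DNMT TKO it went from 2.69, 3.56 and 4.24 CPM to 9.41, 13.7 and 12.0 CPM, and in TET TKO from 3.35 and 3.83 CPM to 17.0 and 15.8 CPM. The shEmpty libraries of the 3 lines overlapped, while the shKap1 libraries of WT lay above those of TET TKO and these above those of DNMT TKO. The log2 fold changes were 3.02 ± 0.16 (SE, edgeR adjusted p = 8.1e-11) in WT, 1.73 ± 0.16 in DNMT TKO and 2.19 ± 0.19 in TET TKO. The response of DNMT TKO was smaller than that of WT by 1.28 ± 0.22 on the log2 scale (edgeR adjusted p = 0.00048).

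Zfp560 (chr9:20149580-20189621, minus strand, KRAB) carried a KAP1 region within 1 kb of its start, and a copy of the RMER5 long terminal repeat (LTR) lay there on the other strand. It went from 6.55, 5.30 and 5.56 CPM to 36.7, 35.8 and 36.3 CPM in WT and from 4.21, 5.77 and 6.29 CPM to 29.7, 43.9 and 31.7 CPM in DNMT TKO. In TET TKO both shEmpty libraries, at 2.08 and 1.99 CPM, lay below every other library, and both shKap1 libraries, at 67.3 and 63.9 CPM, lay above every other one. The log2 fold changes were 2.65 ± 0.15, 2.68 ± 0.15 and 5.01 ± 0.20, and the response in TET TKO exceeded that in WT by 2.35 ± 0.25 (edgeR adjusted p = 9.6e-06).

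Zfp353 (chr8:43164627-43169733, minus strand) had an MT2B LTR on its own strand within 1 kb of its start, and its rise in TET TKO was the largest of any member. It had 8 reads over the WT shEmpty libraries and 30 with shKap1, a ratio of 4.58 per read sequenced (95% interval 2.05 to 11.6). In DNMT TKO the reads went from 17 to 94 (ratio 5.97, 3.54 to 10.7) and in TET TKO from 5 to 349 (ratio 93.4, 39.7 to 290), these intervals covering counting error only. The TET TKO shKap1 libraries, at 8.33 and 8.67 CPM, stood above all others, which reached at most 1.79 CPM. As Zfp353 is a member only through these 2 libraries, its values are a description. Its coding sequence was identical to that of Zfp352 at 95.2% of 1650 aligned bases, so the split of reads between these near copies is uncertain. Zfp352, left out of the members, had log2 fold changes of 2.90, 2.74 and 6.02 in the 3 lines.

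A mark of 2-cell-like cells, rare cells of such cultures that express genes of the early embryo, moved with these TET TKO values. The 3 markers tested, Zscan4c, Zscan4d and Tdpoz4, were called higher in each knockdown. Their summed level went from 9.72–19.0 to 150–166 CPM in WT, from 4.47–13.8 to 43.3–94.5 CPM in DNMT TKO and from 6.16–7.33 to 425–439 CPM in TET TKO. Its part in the response of Zfp353 and Zfp560 was not tested.

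Zfp618 (C2H2 fingers without KRAB) had peaks of both H3K4me3 and H3K27me3 at its start. Its level went from 0.889, 2.28 and 1.84 CPM to 12.9, 13.5 and 12.5 CPM in WT, from 0.406, 0.552 and 1.00 to 3.60, 4.04 and 3.75 CPM in DNMT TKO, and from 0.846 and 0.714 to 6.62 and 6.42 CPM in TET TKO. Every shKap1 library lay above every shEmpty library of any line. The log2 fold changes were 2.91 ± 0.24, 2.50 ± 0.28 and 3.05 ± 0.32.

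Zfp677 (KRAB, chromosome 17) went from 1.11, 0.498 and 0.425 CPM to 5.03, 4.33 and 4.74 CPM in WT. In DNMT TKO it went from 0.660, 0.483 and 0.848 CPM to 2.59, 2.59 and 2.82 CPM, and in TET TKO from 0.247 and 0.188 CPM to 2.55 and 2.31 CPM. The groups did not overlap in any line, and the reads behind the ratio were 46 and 285 in WT, 49 and 185 in DNMT TKO, and 12 and 100 in TET TKO. Its log2 fold changes were 2.87 ± 0.27, 2.01 ± 0.28 and 3.45 ± 0.40. As Zfp677 reached the read minimum only through WT shKap1, its values are a description.

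The other risers of all 3 lines moved by smaller steps. Zfp54, with an internal part of a MERVL element on the same strand within 1 kb of its start, had log2 fold changes of 1.74 ± 0.16, 1.20 ± 0.16 and 1.22 ± 0.21 in WT, DNMT TKO and TET TKO. Zfp125, with H3K9me3 at its start and over its last exon, had 1.64, 1.73 and 1.12. Zfp455 had 1.46, 1.06 and 1.58, and Zfp467, with both H3K4me3 and H3K27me3 at its start, had 1.37, 1.03 and 1.13. A wider set of 42 members (13.7%) rose at an adjusted p below 0.05 in each line, against 8.23% of all genes tested and 9.61% of those with at least 500 reads.

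**Figure D2:**
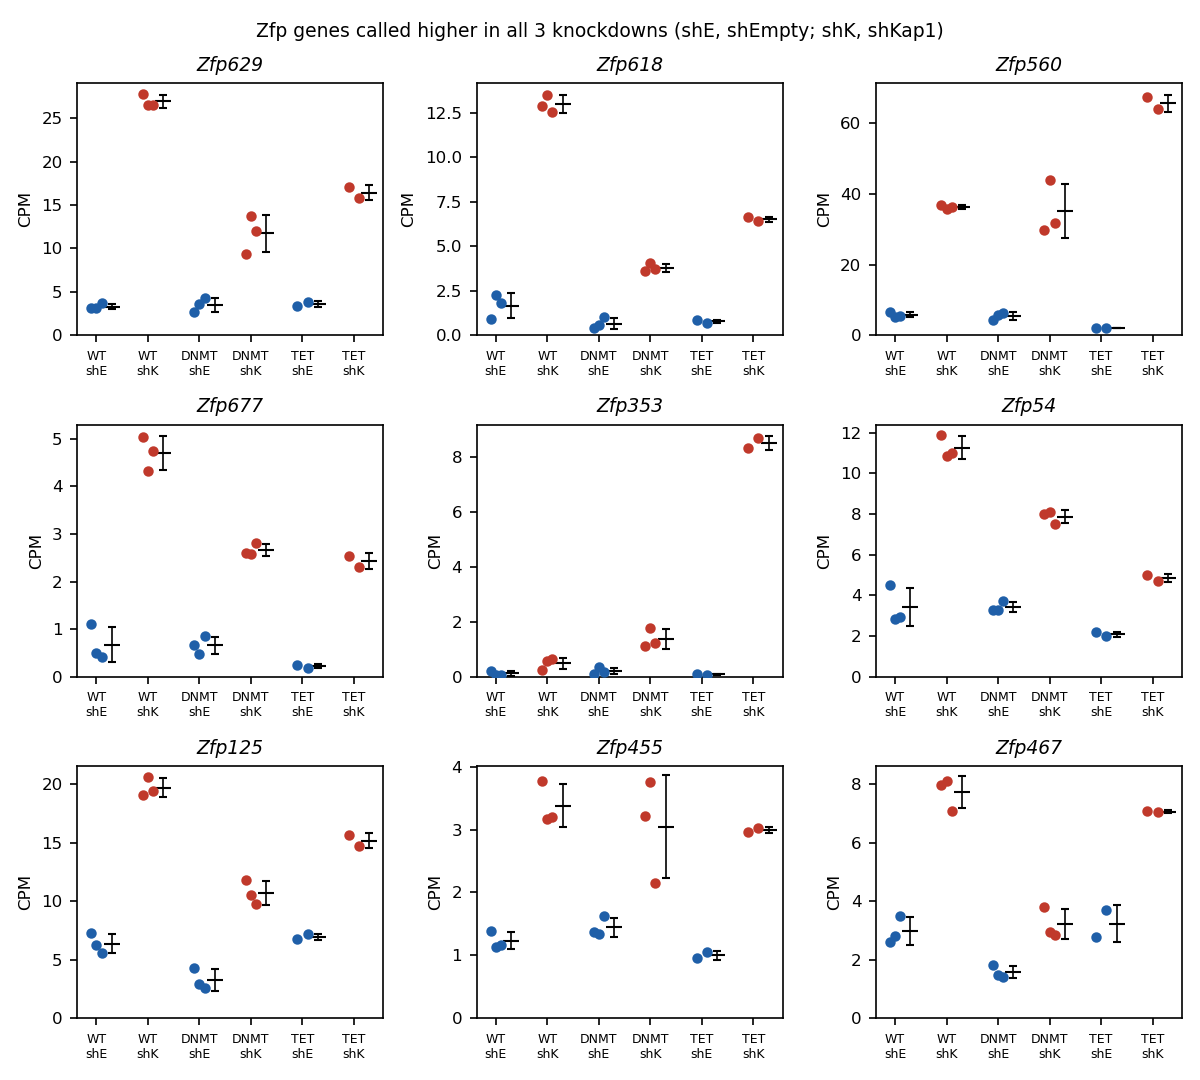
CPM (y axis, from 0) of the 9 members called higher in all 3 lines, by genotype and hairpin (shE, shEmpty in blue and shK, shKap1 in red), with 1 point per library and the mean ± SD beside the points (n = 3 for WT and DNMT, n = 2 for TET). In each panel the red points lie above the blue points of the same line, and Zfp560 and Zfp353 are highest in TET TKO shKap1, at 63.9 to 67.3 and 8.33 to 8.67 CPM.

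The lines shared part of their called members, Zfp353 and Zfp677 being in each shared list. Each line had its own shEmpty libraries. WT and DNMT TKO shared 13, which were 50.0% of the WT list and 59.1% of the DNMT TKO list. WT and TET TKO shared 11 (42.3% and 73.3%), and DNMT TKO and TET TKO shared 10 (45.5% and 66.7%). These shared lists were 4.23%, 3.58% and 3.26% of the members, against 5.64%, 5.52% and 4.90% of all genes tested and 4.30%, 4.52% and 3.86% of those with at least 500 reads, so sharing was not more frequent among the members. Without Zfp353 and Zfp677 the shared lists held 11, 9 and 8 members (3.61%, 2.95% and 2.62%). Across the 307 members the log2 fold changes of WT and DNMT TKO had a Pearson correlation of 0.70, those of WT and TET TKO 0.69 and those of the mutant lines 0.69, given as descriptions over genes, which are not independent. By rank (Spearman) the same pairs had 0.66, 0.70 and 0.58, so the mutant lines were less alike by rank. Zfp353 and Zfp677 are included in these values.

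Other members were called higher in WT without a call in the mutants. Zfp703, a transcriptional cofactor with no C2H2 finger by the motif used, had 1.17, 3.10 and 3.04 CPM in WT shEmpty and 17.2, 20.0 and 20.5 CPM in WT shKap1. In DNMT TKO it had 3.30, 5.87 and 6.44 CPM with shEmpty and 6.39, 8.18 and 6.60 CPM with shKap1, and in TET TKO 15.9 and 15.2 CPM against 9.07 and 10.4 CPM. The WT groups lay far apart, those of DNMT TKO overlapped, and in TET TKO the shEmpty libraries were the higher ones, with levels already near those of WT shKap1. The log2 fold changes were 2.93 ± 0.26 (edgeR adjusted p = 1.6e-07), 0.42 ± 0.25 (0.21) and -0.67 ± 0.28 (0.085). Both mutant lines differed from WT in this response, by -2.51 ± 0.36 and -3.60 ± 0.38 (edgeR adjusted p = 0.00013 and 2.2e-05).

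H3K27me3, the mark of Polycomb repression, lay at the start of 25 members (8.14%), against 15.9% of all genes tested. Among the 13505 genes with at least 500 reads it lay at the start of 1668. Of the 26 members called higher in WT, 7 were among these 25: Zfp703, Zfp618, Zfp334, Zfp651, Zfp467, Zfp768 and Zfp362. Of the 25, 13 rose and 2 fell at an adjusted p below 0.05, with a median of 0.49. Of the 282 members without the mark 19 were called higher (6.74%) and 119 rose, with a median of 0.17. Over all 3241 genes tested with H3K27me3 at the start 19.9% were called higher, with a median of 0.14. The starts of 267 members (87.0%) lay at an H3K4me3 peak, the mark of active and poised promoters, against 69.3% of genes tested. Members needed 500 reads and genes tested only 16, so these shares were not matched for reads.

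Falls of at least 2-fold were called for 2 members in WT, 1 in DNMT TKO and 0 in TET TKO. Zfp553 (chr7:134376575-134381693, C2H2 fingers without KRAB) fell the most in WT, from 220, 181 and 172 CPM to 71.0, 65.4 and 66.9 CPM. It went from 113, 103 and 98.3 to 77.6, 94.2 and 85.2 CPM in DNMT TKO and from 134 and 145 to 111 and 112 CPM in TET TKO. The groups stood apart in each line, with every WT shEmpty library above all others and every WT shKap1 library below all others. The log2 fold changes were -1.50 ± 0.09, -0.29 ± 0.09 and -0.33 ± 0.10, and the fall was smaller than in WT by 1.20 ± 0.12 in DNMT TKO and by 1.17 ± 0.14 in TET TKO (edgeR adjusted p = 2.6e-06 and 2.9e-05). Zfp553 lay in the same cluster of chromosome 7 as Zfp629, the member that rose most.

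The remaining falls stood near the 2-fold limit. Zfp459 (KRAB, chromosome 13) had 57.8, 35.9 and 32.4 CPM in WT shEmpty and 19.8, 20.2 and 21.5 CPM in WT shKap1, a log2 fold change of -1.03 ± 0.26 (edgeR adjusted p = 0.0056). Without the highest shEmpty library, replicate 1, it was -0.72, and with the replicate number as a block it was -0.99, so that 1 member in place of 2 was called lower in WT. Zfp764 (KRAB, chromosome 7) fell in DNMT TKO from 6.91, 6.01 and 5.40 CPM to 2.50, 3.06 and 3.45 CPM, by 1.01 ± 0.18 on the log2 scale, and was at -0.91 without shKap1 replicate 1 and at -0.95 without shEmpty replicate 1.

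The response of the mutant lines was then compared with that of WT member by member. In DNMT TKO the knockdown effect was called higher than in WT for 6 members and lower for 7, against 4.66% and 2.48% of all genes tested. In TET TKO it was called higher for 7, Zfp353 among them, and lower for 2, against 2.08% and 2.13%. The count of 2 was 4 without WT shEmpty replicate 1, 2 or 3, WT shKap1 replicate 1 or TET TKO shKap1 replicate 1. At any size and an adjusted p below 0.05, 17 members had a higher and 43 (14.0%) a lower effect in DNMT TKO than in WT. Of all genes tested 10.6% and 7.78% did. The knockdown was shallower in that line, and its part in these counts was not tested. In TET TKO the counts were 13 and 19, against 4.64% and 5.06%.

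For all 6 members whose knockdown effect was called higher in DNMT TKO than in WT, the control level was lower in that line. Those shEmpty libraries enter both values. The 6 include Zfp553, whose fall was smaller in DNMT TKO. Zfp869 (KRAB, chromosome 8) had 34.5, 32.8 and 32.8 CPM in WT shEmpty and 46.6, 55.3 and 52.6 CPM with shKap1. In DNMT TKO it had 9.55, 13.1 and 14.1 CPM and 51.8, 40.8 and 38.4 CPM, so that the shKap1 groups overlapped and the shEmpty groups did not. Its effect exceeded that of WT by 1.19 ± 0.17. Zfp365 was at 33.9, 26.0 and 26.8 CPM in WT shEmpty and 21.6, 19.5 and 20.1 CPM in WT shKap1, and at 19.7, 13.0 and 13.4 CPM and 38.2, 33.8 and 35.6 CPM in DNMT TKO. It fell in WT and rose in DNMT TKO, with a difference of 1.73 ± 0.19 (edgeR adjusted p = 5.1e-06). Zfp750, a factor known from epidermal differentiation, also had opposite directions, -0.92 ± 0.27 in WT and 1.09 ± 0.26 in DNMT TKO.

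In TET TKO, Zfp109 (KRAB, chromosome 7) went from 4.27 and 3.68 CPM to 16.3 and 16.1 CPM, against 4.05, 4.38 and 4.03 CPM to 6.03, 6.80 and 6.13 CPM in WT. The shEmpty libraries of the lines overlapped, and the TET TKO shKap1 libraries stood above all others. The effects were 2.03 ± 0.18 and 0.60 ± 0.15, a difference of 1.42 ± 0.23 (edgeR adjusted p = 0.00069). Zfp263, a C2H2 factor, rose by 0.80 ± 0.08 in TET TKO and fell by 0.28 ± 0.07 in WT, and its control level in TET TKO was lower than in WT by 1.41 ± 0.08. Zfp334 (KRAB) had 1.61 ± 0.17 in WT, 0.88 ± 0.17 in DNMT TKO and 2.39 ± 0.22 in TET TKO, with differences of -0.74 ± 0.24 and 0.77 ± 0.28 from WT, neither of which was called.

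**Figure D3:**
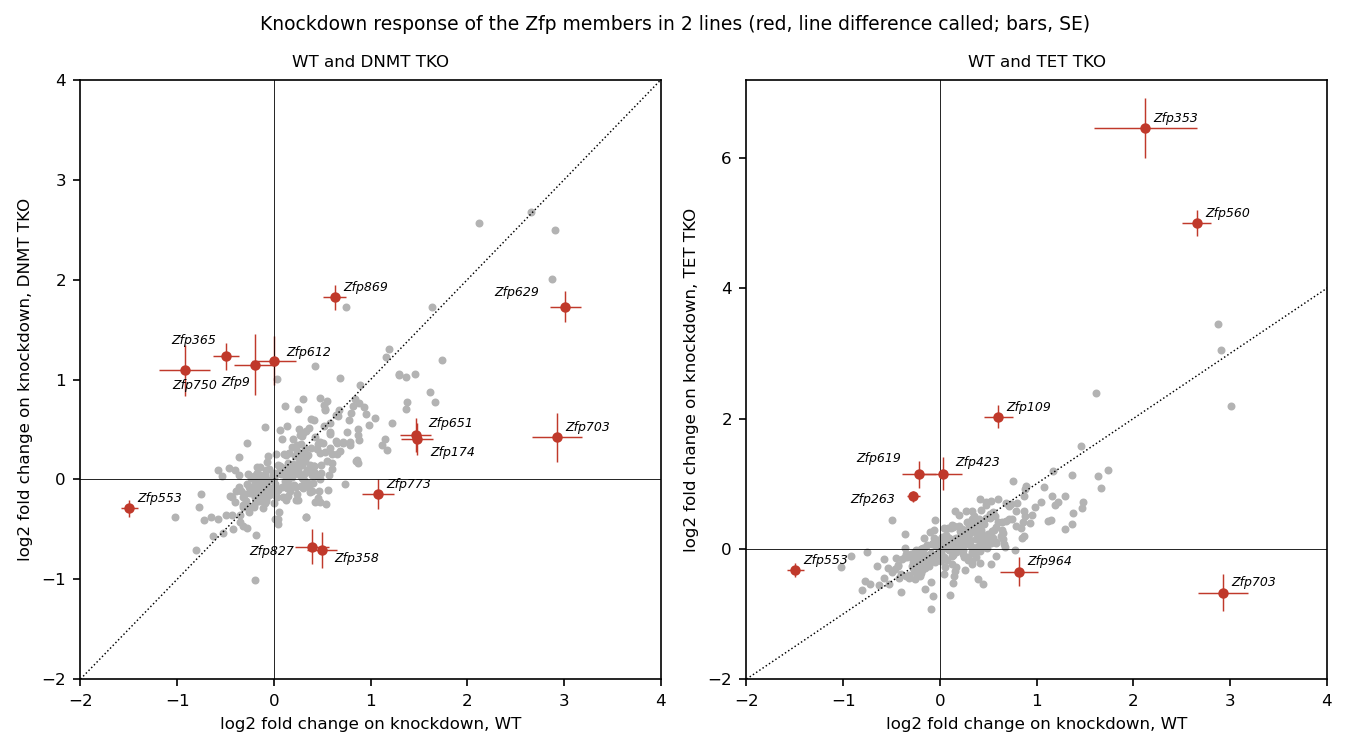
Log2 fold change on Kap1 knockdown in WT (x axis) against that in DNMT TKO (left, y axis) and in TET TKO (right, y axis with a wider range) for the 307 members, with a dotted line of equal change. Red points with SE bars are the 13 and 9 members whose response was called different from WT, with Zfp629 and Zfp703 below the line in the left panel and Zfp560 and Zfp353, the second given as a description only, above it in the right.

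Without knockdown, the mutant lines were compared with WT over the shEmpty libraries, which also serve as controls of the knockdowns above. In DNMT TKO 7 members were called higher and 14 lower, against 8.23% and 8.05% of all genes tested. In TET TKO 8 were called higher and 11 lower, against 5.66% and 4.80%, and without WT shEmpty replicate 1 the count of 11 was 7. At any size 54 members were higher (17.6%) and 90 lower (29.3%) in DNMT TKO at an adjusted p below 0.05, against 20.5% and 23.1%, and 46 (15.0%) and 65 (21.2%) in TET TKO, against 14.1% and 13.1%. The median of the members was -0.07 in DNMT TKO and -0.06 in TET TKO.

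Zfp951 (KRAB, chr5:105242366-105246371), which lay under an H3K9me3 region at its last exon, rose the most in DNMT TKO. It had 7.50, 5.41 and 6.44 CPM in WT shEmpty, 55.4, 44.0 and 44.2 CPM in DNMT TKO and 41.6 and 40.0 CPM in TET TKO. All mutant libraries stood above all WT ones, with log2 differences of 2.90 ± 0.16 and 2.68 ± 0.17 (edgeR adjusted p = 6.5e-10 and 8.6e-09). On Kap1 knockdown in WT it moved by 0.12 ± 0.18 (adjusted p = 0.63 by edgeR). Zfp521, a factor of early neural differentiation, went opposite ways: it had 2.39, 1.07 and 1.24 CPM in WT, 0.457, 0.518 and 0.463 CPM in DNMT TKO and 10.3 and 12.1 CPM in TET TKO. The 3 lines did not overlap, with differences from WT of -1.63 ± 0.32 and 2.90 ± 0.25.

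Among the falls in DNMT TKO, Zfp429 (KRAB, chromosome 13) went from 3.78, 3.56 and 3.22 CPM in WT to 0.305, 0.483 and 0.231 CPM, by -3.32 ± 0.25, while TET TKO had 6.45 and 6.05 CPM. Zfp423, a C2H2 factor with roles in fat and neural precursors, was lower in both mutants, with 13.0, 9.85 and 9.06 CPM in WT, 3.66, 1.66 and 1.85 CPM in DNMT TKO and 4.41 and 5.22 CPM in TET TKO. Its differences were -2.19 ± 0.23 and -1.14 ± 0.24, and it rose on knockdown in both mutants by 1.01 and 1.15 but not in WT (0.03 ± 0.20). Zfp677 and Zfp560, risers on knockdown, were lower in TET TKO than in WT by 1.52 ± 0.44 and 1.50 ± 0.20. The value of Zfp677 was -1.55 in the fit of only the groups compared (edgeR adjusted p = 0.076), -1.06 without WT shEmpty replicate 1 (0.087), and -1.73 and -1.35 without TET TKO shEmpty replicates 1 and 2 (0.067 and 0.12), so that the call was lost in each.

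A run of 4 members on chromosome 6 fell together in DNMT TKO. In chr6:117791198-118429338 lie Zfp637, Zfp239, Zfp248 and Zfp9, with differences from WT of -0.63 ± 0.13, -1.19 ± 0.10, -2.07 ± 0.17 and -2.70 ± 0.27. Zfp9 had 2.55, 3.10 and 3.50 CPM in WT and 0.457, 0.449 and 0.501 CPM in DNMT TKO, and Zfp248 had 12.7, 14.7 and 16.8 CPM and 3.71, 3.73 and 3.12 CPM. In TET TKO the same 4 had a median of -0.43, with 2 falling. The genes of chromosome 6 with at least 500 reads had a median of -0.31 in DNMT TKO, against -0.42 for the 17 members there. On chromosome 11 the 14 members and the genes with at least 500 reads had the same median of 0.30 in that line. The number of copies of each chromosome in these lines was not measured here, and its part in these values was not tested.

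Members were grouped into clusters where at least 4 lay in a row with gaps of at most 1 Mb. There were 19 clusters with 159 members, 125 of the 174 KRAB members among them. In WT 75 of the 159 rose on knockdown (47.2%) and 18 fell, and of the 148 outside 57 rose (38.5%) and 25 fell.

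In the largest cluster, chr17:21145905-23736454 with 20 KRAB members, 14 rose and 1 fell in WT. The median was 0.54, where all genes tested on the chromosome had -0.10 and 18.6% of them rose. In DNMT TKO the median was 0.30 with 10 rising, and in TET TKO 0.26 with 11 rising. This cluster holds Zfp54 and Zfp677, the second counted among its risers though a member only through WT shKap1. The cluster chr13:66771705-67927937, with 16 KRAB members, had a median of 0.51 in WT, with 10 rising and Zfp459 falling, where the chromosome had 0.19 and 31.1%. Zfp455 and Zfp458 were its called risers, the second with 1.15 ± 0.19. In the 4 KRAB members of chr8:74411163-74517307 the median was 0.66 with 3 rising, among them Zfp882, which had H3K9me3 and KAP1 at its start and log2 fold changes of 1.19, 1.31 and 0.67. In the 4 of chr2:149940142-150310827 it was 0.47, with 3 rising.

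Other clusters held members that went both ways. In chr7:134376575-135029510 the 10 members ran from -1.50 (Zfp553) to 3.02 (Zfp629), with a median of -0.16. The 5 members of chr7:4866819-5005324, none with KRAB, had a median of 0.08 with 1 rising.

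**Figure D4:**
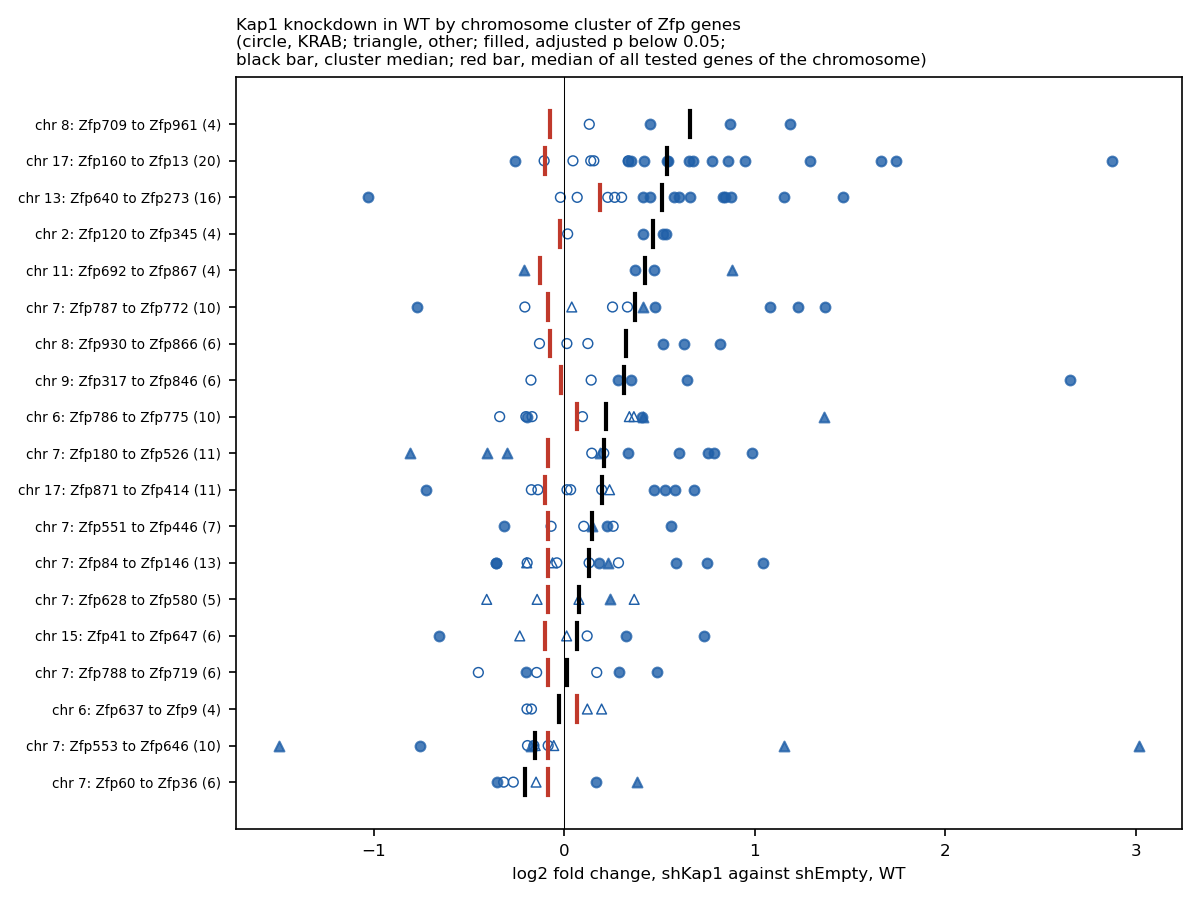
Log2 fold change of shKap1 over shEmpty in WT (x axis) for the members of the 19 chromosome clusters (y axis, named by first and last member with the number of members), circles for KRAB members and triangles for others, filled where the adjusted p was below 0.05. Black bars are cluster medians and red bars medians of all tested genes of the chromosome, and the black bar is furthest right in the clusters of chromosomes 8, 17, 13 and 2, at 0.66, 0.54, 0.51 and 0.47.

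KAP1 regions and H3K9me3 regions, deposited as lists for WT cells, were set against the ends of the genes. A KAP1 region overlapped the last exon of 19 members (6.19%), against 1.63% of all genes tested, and lay within 1 kb of the 3′ end of 12 (3.91%), against 2.06%. The count of 12 changed strongly with the width of the window, as given in the last section. H3K9me3 overlapped the last exon of 22 members (7.17%), against 1.37%, and lay within 1 kb of the end of 21 (6.84%), against 1.73%. In 20 of these 21 the region was from the list that depends on KAP1. At the start, KAP1 was found for 17 members (5.54%), against 4.40%, and H3K9me3 for 8 (2.61%), against 1.20%. Both marks overlapped the last exon of 9 members (2.93%), against 0.591% of all genes tested: Zfp629, Zfp640, Zfp706, Zfp600, Zfp534, Zfp11, Zfp12, Zfp180 and Zfp27. By class, H3K9me3 overlapped the last exon of 15 of 174 KRAB members and 7 of 122 C2H2 members without KRAB. For KAP1 these counts were 11 and 8. In the chromosome 17 cluster of 20 members, H3K9me3 overlapped the last exon of 0 and KAP1 that of 1. In the chromosome 13 cluster of 16 each overlapped 1.

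**Figure D5:**
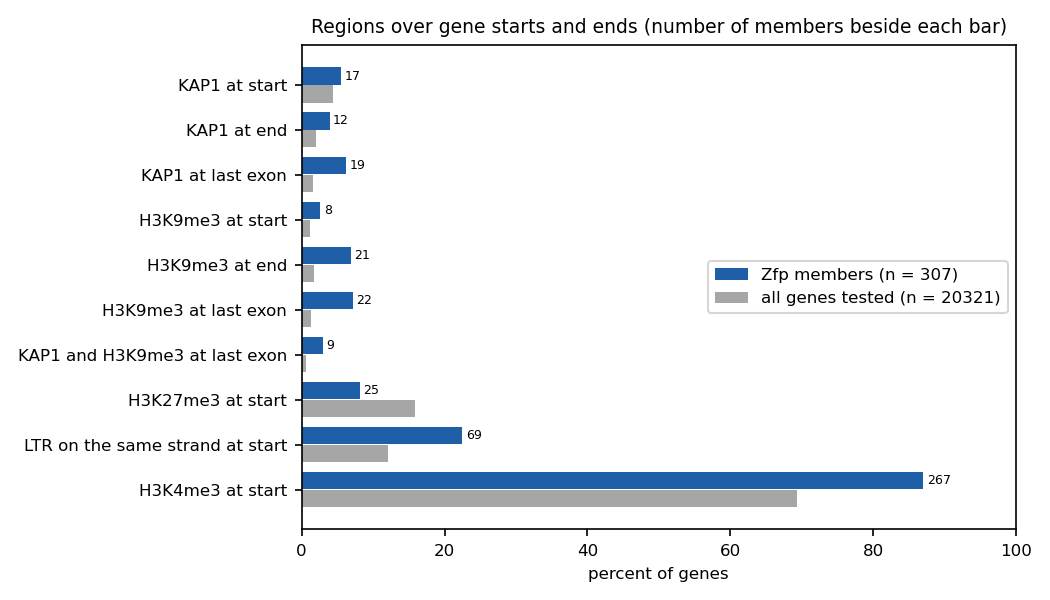
Percent of the 307 members (blue) and of all 20321 genes tested (grey) with each region at the start or end (within 1 kb) or over the last exon, with the number of members beside each bar. The blue bar is the longer one in each pair except H3K27me3 at the start, with 6.19% against 1.63% for KAP1 and 7.17% against 1.37% for H3K9me3 on the last exon.

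The centres of the KAP1 regions on last exons were searched for finger sequence. The linker motif, DNA that can encode the Gly-Glu-Lys-Pro stretch between neighbouring fingers with any base at each wobble position, was searched on both strands of the central 150 bases. It was present in 10 of 20 KAP1 regions on members' last exons (50.0%) and in 79 of 26222 KAP1 regions in all (0.301%). The 20 regions were picked by their place on these last exons, which hold the finger repeats, while the 26222 lie anywhere. These shares are therefore a description and no test, and the share in the rest of the same exons was not measured. For 5 members the central bases are printed in mm9, on the strand of the gene, with the motif in capitals, to show the coding repeat at the centre of these regions.

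Zfp629, chr7:134755374-134755523, minus strand: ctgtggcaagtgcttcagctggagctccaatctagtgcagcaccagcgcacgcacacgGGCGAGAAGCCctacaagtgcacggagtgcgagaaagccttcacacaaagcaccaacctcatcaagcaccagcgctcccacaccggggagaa
Zfp11, chr5:130163427-130163576, minus strand: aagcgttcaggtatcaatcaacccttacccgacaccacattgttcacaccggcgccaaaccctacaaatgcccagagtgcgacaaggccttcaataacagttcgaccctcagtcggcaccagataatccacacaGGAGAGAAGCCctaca
Zfp27, chr7:30679495-30679644, minus strand: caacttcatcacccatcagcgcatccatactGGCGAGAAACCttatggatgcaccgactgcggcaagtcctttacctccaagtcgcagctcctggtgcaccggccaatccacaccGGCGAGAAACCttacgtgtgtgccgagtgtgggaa
Zfp534, chr4:147048930-147049079, minus strand: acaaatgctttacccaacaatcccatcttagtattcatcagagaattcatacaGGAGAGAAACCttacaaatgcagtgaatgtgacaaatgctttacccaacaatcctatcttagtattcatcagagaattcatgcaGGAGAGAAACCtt
Zfp180, chr7:24890443-24890592, plus strand: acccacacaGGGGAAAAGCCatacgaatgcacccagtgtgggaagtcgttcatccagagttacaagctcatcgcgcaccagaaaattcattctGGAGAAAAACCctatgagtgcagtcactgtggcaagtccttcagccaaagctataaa

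Of the 22 with H3K9me3 on the last exon, 16 rose at an adjusted edgeR p below 0.05, with a median of 0.42, and of the 285 without it 116 rose and 43 fell, with a median of 0.17. In DNMT TKO 8 of the 22 rose and 3 fell, and in TET TKO 7 rose. Zfp353 is among the 22 and among the risers of each line. It is a member only through TET TKO shKap1, so these counts follow in part from how members were chosen. Of the 19 with KAP1 on the last exon, 13 rose and 2 fell in WT, but 3 rose and 3 fell in DNMT TKO (median 0.03), where 28.1% of the members without it rose, and 5 rose and 1 fell in TET TKO. Of the 9 with both marks, 8 rose in WT (median 0.48), and Zfp629 was the only one called, while in DNMT TKO 3 rose and 2 fell (median 0.04). Zfp640 had 0.85 ± 0.15, Zfp27 had 0.59 ± 0.12, Zfp534 had 0.57 ± 0.16 and Zfp12 had a value of 0.01. The 8 members with H3K9me3 at the start had a median of 1.02, with 7 rising and 4 called (Zfp629, Zfp125, Zfp772 and Zfp882). Of the 299 members without it 22 were called (7.36%) and 125 rose, with a median of 0.18. Over all 244 genes tested with H3K9me3 at the start 40.6% were called higher, with a median of 1.10, so a high share called was not particular to the members. With H3K9me3 on the last exon 49.1% of all genes tested rose, and with KAP1 there 31.7%.

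LTRs were also more frequent at the starts of members than of other genes. Within 1 kb of the start, an LTR on the same strand was found for 69 members (22.5%), against 12.1% of all genes tested, and 55 of the 69 were KRAB members. Of these 69, 38 rose (55.1%) and 7 fell in WT, with a median of 0.30. That is also the median of the KRAB members, of which 52.3% rose. Zfp353, a member only through TET TKO shKap1, is among the 69 and the 38. Of the 238 without such an LTR 94 rose (39.5%), with a median of 0.17, and over all genes tested with one 24.3% rose.

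5hmC was measured by hMeDIP in WT, with 1 usable replicate per hairpin, so the changes have no test. For each region, 5hmC reads were divided by input reads, and the change is the log2 difference of that quotient between hairpins, each library first scaled by its reads over all deposited region lists, which are part of a library and not its depth. Over the 13 KAP1 regions near member ends the median change was 0.80 and over the 20 on last exons 0.50, against 0.64 over 25992 KAP1 regions (quartiles 0.06 to 1.20). Scaled to the reads in H3K4me3 regions these medians were 0.41, 0.11 and 0.26. In replicate 2 they were below 0 when read by its labels, and 0.69, 0.12 and 0.81 when read by its file names. The KAP1 region of Zfp629 (chr7:134753498-134757400) had 74 input and 126 5hmC reads with shEmpty and 95 and 445 with shKap1, a change of 1.79. The H3K9me3 region over the same gene, 18799 bases long, had a change of 1.59, and that of Zfp125 had 1.51. Most H3K9me3 regions of members did not change like these: over 27 the median was 0.02, with 14 above 0, against 0.66 over all 14390 KAP1-dependent H3K9me3 regions.

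The most abundant members per length did not include the strong risers. Over the WT shEmpty libraries Zfp106, an RNA-binding protein, had 63.3 ± 1.45 CPM per kb (SD, n = 3), Zfp534 had 61.9 ± 15.5, Zfp207, a spindle protein, had 60.1 ± 2.72, Zfp553 had 56.7 ± 7.58 and Zfp598, a ubiquitin ligase of stalled ribosomes, had 49.2 ± 0.08. Neighbours in this order differed by less than the larger of their SDs. On knockdown in WT Zfp106, Zfp207 and Zfp598 fell by 0.32, 0.29 and 0.50 on the log2 scale, and Zfp534 rose by 0.57.

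Members with known roles outside the KRAB system were taken from a list of 28, of which 25 were members. In WT 10 of these 25 rose and 6 fell on knockdown, where 23.0% and 22.7% of all genes tested did. Of the 13505 genes with at least 500 reads, 3535 rose and 4057 fell. Zfp91, a ubiquitin ligase, rose in all lines, by 0.72 ± 0.06, 0.36 ± 0.06 and 0.46 ± 0.07. Zfp711, an X-linked factor, rose by 0.93 ± 0.15 in WT and 0.73 ± 0.14 in DNMT TKO. Zfp148 rose by 0.41 ± 0.06, and Zfp706, known for its part in the exit of ES cells from self-renewal, rose by 0.43 ± 0.06 in WT and fell by 0.22 ± 0.06 in DNMT TKO. Zfp219 fell by 0.39 ± 0.06 in WT, and Zfp292 fell in each line, by 0.35, 0.35 and 0.42. Zfp281, a regulator of pluripotency, had 0.05 ± 0.09 in WT, and Zfp143 and Zfp384 had -0.12 ± 0.07 and 0.02 ± 0.07. Zfp462 was lower in DNMT TKO than in WT by 1.02 ± 0.30.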

How the data were processed

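RNA values were read counts per gene made by the authors with featureCounts, counting by strand, after alignment to mm9, by the study's methods with HISAT2, keeping unique reads. The 5hmC values were read counts deposited per region (bedtools), over KAP1 regions from MACS and H3K9me3 regions from SICER. H3K4me3 and H3K27me3 peaks carry the score deposited by the authors, with reads mapped by Bowtie2.

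Genes with at least 16 reads over the 16 libraries were tested over all groups in 1 fit, with edgeR 4.0.16 (TMM, robust quasi-likelihood F test) in R 4.3.3, and adjusted by Benjamini-Hochberg within each of 7 comparisons. The count test replaced the study's voom, which was an alternative. Values are log2 fold changes ± SE of that fit, and CPM with TMM factors (0.950 to 1.040). If libraries of a group were not independent, p-values measure only the spread between these samples. The test was checked on simulated data with 200 changed genes.

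Same-numbered libraries deviated together over genes with at least 500 reads: 0.296 to 0.474 between WT shEmpty and shKap1, 0.203 to 0.574 between those of DNMT TKO and 0.317 to 0.511 between the shEmpty groups of both, but -0.025 in TET TKO. The pairing of WT and DNMT TKO libraries comes from these values, the lowest being 0.0974 between their shKap1 groups.

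KRAB boxes and fingers were found in coding sequences of gencode vM1 with HMMER 3.4 and a motif search, and marks by overlap of at least 1 base. Start and end windows were 1 kb on either side. The 5hmC ratio used a pseudocount of 1 read and regions with at least 10 input reads. Intervals are exact binomial ones of 95%. Named members were the 5 largest rises and falls per knockdown and the 3 per other comparison among those called without overlap, the 2 largest changes per cluster, the 5 highest per kb, the role list, the 3 on either side of the read minimum, and the 5 largest changes with both marks at the end. Others were chosen after their values were seen. Members and lists were chosen with earlier results of these data known. Replicate 2 of hMeDIP, whose labels and file names give different roles, was used only as an alternative.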

Additional observations from a re-analysis of the deposited data

Results flagged for a closer look

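The knockdown response differed from that of WT, by a called difference of the responses in edgeR, for 13 members in DNMT TKO. It was higher in DNMT TKO for Zfp750 (2.02 on the log2 scale), Zfp365 (1.73), Zfp9 (1.34, not called without replicate 2 of DNMT TKO shEmpty or of shKap1), Zfp553 (1.20), Zfp869 (1.19) and Zfp612 (1.19). It was lower for Zfp703 (-2.51), Zfp629 (-1.28), Zfp773 (-1.23), Zfp358 (-1.20), Zfp174 (-1.08), Zfp827 (-1.06) and Zfp651 (-1.02). Zfp365 and Zfp750 fell in WT and rose in DNMT TKO, whereas Zfp553 fell in both lines. Trim28 itself was reduced less in DNMT TKO, by 1.28 on the same scale, and its part in these differences was not tested.

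In TET TKO 8 members differed from WT in the same way. The response was higher for Zfp560 (2.35), Zfp619 (1.36), Zfp109 (1.42), Zfp553 (1.17), Zfp423 (1.12) and Zfp263 (1.08), and lower for Zfp703 (-3.60) and Zfp964 (-1.17, not called without TET TKO shEmpty replicate 2 or shKap1 replicate 1). Zfp353 had a difference of 4.34, given as a value only, since it reached the read minimum through TET TKO shKap1. The difference of the Trim28 response itself was -0.06 ± 0.23. Zfp703 and Zfp553 were in the lists of both mutant lines, which share the WT libraries.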

How the results depend on the processing

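With no fold threshold the counts of members higher and lower became 132 and 43 in WT, 84 and 38 in DNMT TKO and 71 and 32 in TET TKO. For the difference from WT in response they became 17 and 43 in DNMT TKO and 13 and 19 in TET TKO, and for shEmpty 54 and 90, and 46 and 65. Limma-voom called 1 member lower in WT and 0 in DNMT TKO, and the fit with the replicate block called 1 lower in WT (Zfp459 lost). That block also took Zfp248 from the TET TKO shEmpty difference (18 of 19 shared) and changed no other call. Leaving out 1 library at a time gave 26 to 28 higher and 1 to 3 lower in WT, 17 to 21 and 0 to 1 in DNMT TKO, and 15 to 16 and 0 in TET TKO. For the difference in response it gave 5 to 7 higher and 6 to 9 lower in DNMT TKO, and 6 to 7 and 2 to 4 in TET TKO, and for shEmpty 5 to 7 and 14 to 16, and 6 to 8 and 7 to 10.

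KAP1 at the 3′ end was found for 7 members in windows of 0.5 kb, 42 in windows of 5 kb and 19 on the last exon, and H3K9me3 for 34 in windows of 5 kb. Wider windows also catch more genes of any kind. The shares of all genes in the 0.5 and 5 kb windows are not given, so these counts cannot show whether members were in excess there. The median 5hmC changes at member ends, on member last exons and over all KAP1 regions were -0.69, -0.12 and -0.82 in replicate 2 read by its labels, 0.69, 0.12 and 0.81 by its file names, and 0.41, 0.11 and 0.26 scaled to H3K4me3 regions. In replicate 1 with a pseudocount of 5 reads, member ends were at 0.580 and all regions at 0.616, and with at least 30 input reads at 0.641 and 0.734, so the order of the 2 turned with the setting. Of 573 values of named members under other settings, each library left out in turn included, 558 kept their call, 15 of 5 members lost it (Zfp459, Zfp677, Zfp764, Zfp9 and Zfp964) and 0 reversed. Zfp9 lost the difference in response without DNMT TKO shEmpty replicate 2 (1.27) or shKap1 replicate 2 (1.05), and Zfp964 without TET TKO shEmpty replicate 2 (-1.12) or shKap1 replicate 1 (-1.07). Zfp677 lost the shEmpty difference in TET TKO without either TET TKO replicate or WT replicate 1. Without Zfp353 and Zfp677, an alternative added after seeing the data, 24, 20 and 13 members were called higher in the 3 lines. TET TKO has 2 libraries per group, and counts under 10 reads, as in Zfp353, limit its ratios.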
